A study of Mus musculus with 6 samples.

Results

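The clustered protocadherins are the genes of the alpha, beta and gamma protocadherin clusters, which lie next to each other on chromosome 18 of the mouse genome. Members were chosen by symbol alone, as every gene named Pcdha, Pcdhb or Pcdhg with a number or a C-type name in GENCODE vM21, and 58 of the 52550 listed genes were members. There were 14 alpha, 22 beta and 22 gamma entries, and the symbol Pcdha11 stood for a pair of gene identifiers. The family was taken up because the values of Pcdhgb8 and Pcdha8 in these same libraries were known to differ between the groups. The difference between TBI and sham is therefore given as a description and supports nothing here. The spread among libraries of the same group was not used in that choice.

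Hippocampal RNA was collected 24 h after surgery from 3 sham-operated mice (Sham1 to Sham3) and 3 mice with traumatic brain injury (TBI1 to TBI3), and 1 library was sequenced per mouse. All mice were male, of the strain C57BL / 6 in the labels and C57B6/J in the study's methods, and 8 to 10 weeks old, with no transgene or other treatment named. TBI was a moderate controlled cortical impact, in which a piston strikes the exposed cortex over the right parietal bone, and sham mice had the same anaesthesia and craniotomy without the strike. Each library is bulk tissue, so fewer cells of a type and less RNA per cell cannot be told apart.

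The clustered protocadherins are cadherin-like adhesion proteins at the surface of neurons. Each alpha and gamma protein is made from a large variable exon with its own promoter, which is spliced to constant exons at the end of the cluster that all members of that cluster share. A beta gene is a single exon with no constant part. Single neurons are known to use a few members chosen largely at random, while the C-type members at the end of the alpha and gamma clusters are used more broadly, and matching combinations let a neuron tell its own branches from those of other cells.

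The annotation showed this arrangement directly. On GRCm38 the alpha cluster ran from 36930184 to 37187661 of chromosome 18, the beta cluster from 37264938 to 37524479 and the gamma cluster from 37661793 to 37841873, all on the plus strand. Of the exonic bases of an alpha gene, a median of 53.6% (range 38.9 to 91.4%) were also exonic in another gene of the same strand. For the gamma genes the median was 44.7% (31.5 to 66.8%). Of the 22 beta genes, 20 shared no base, and the exceptions were Pcdhb21 and Pcdhb22, which overlap each other by 455 bases. All 22 beta genes had 1 exonic block. Similar sequence elsewhere in the beta cluster was rare as well. Of all stretches of 100 bases in a beta transcript, a median of 0.207% also occurred in another member, with a maximum of 7.73% in Pcdhb21, against medians of 55.1% in alpha and 43.6% in gamma. A read from the constant exons thus matches all 14 alpha or all 22 gamma genes equally, and the split of such reads between members was made by the quantification. Counts of single alpha and gamma genes are therefore uncertain, and those of beta genes are less so.

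The libraries held between 31630936 and 41771872 counts. The unit of level is CPM, the count divided by library size in the usual way, after edgeR's TMM scaling (factors 0.970 to 1.02). The expression filter of edgeR kept 18795 genes, 56 of them members. The beta genes Pcdhb1 and Pcdhb21 were not kept. Pan-neuronal markers (Rbfox3, Snap25, Syt1, Tubb3, Map2 and Eno2) summed to 4778 to 5071 CPM in sham and 4578 to 4649 CPM in TBI, while 3 of the 6 genes were higher and 3 lower in TBI, with a median log2 difference of 0.020. Markers of hippocampal excitatory neurons (6 genes, Prox1 and Wfs1 among them) summed to 687 to 876 CPM in sham and 379 to 599 CPM in TBI, with 1 gene higher and 5 lower (median log2 difference -0.95), and no gene of either list was at 0. Some libraries stood apart in markers of other tissue. Those of striatum (6 genes) summed to 3398 CPM in TBI1 and to 116 to 183 CPM in the other 5. Those of choroid plexus (5 genes, led by Ttr) summed to 2008 to 2328 CPM in Sham1, Sham3 and TBI2, and to 52.3 to 251 CPM in Sham2, TBI1 and TBI3. Those of oligodendrocytes (5 genes) summed to 2695 CPM in Sham2 and to 7855 to 9856 CPM elsewhere, and those of astrocytes (5 genes) to 5238 CPM in Sham2 and to 1970 to 2612 CPM elsewhere. Those of microglia (5 genes, all higher in TBI, none called) summed to 470 CPM in TBI1 and to 231 to 316 CPM in the other 5.

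The counts of the gamma genes varied most between libraries of the same group. Of the 22 gamma genes, 10 ranged over more than 4-fold (a range of log2 CPM over 2) among the 3 libraries of sham or of TBI, 6 of them in sham and 8 in TBI. Of 20 tested beta genes 1 did so, and of 14 alpha genes 0. Among all genes tested, 14.4% ranged this widely. In replicate order, Pcdhga2 had 375, 1736 and 396 counts in the sham libraries and 14901, 174 and 1748 in the TBI libraries. It was thus highest in TBI1 and lowest in TBI2, a 66.4-fold range within TBI. Pcdhgb4 had 544, 396 and 628 counts in sham and 205, 146 and 7839 in TBI, so only TBI3 was above the sham libraries. Pcdhgb5 had 260, 139 and 184 counts in sham and 210, 3724 and 164 in TBI, and here TBI2 was the high library. Pcdhga9 had 1976, 9638 and 2767 counts in sham and 1940, 511 and 466 in TBI, with the highest value in Sham2. Pcdhga8, the most variable gamma gene, had 408, 22 and 24 counts in sham and 51, 675 and 17 in TBI. High values of Pcdhga8 came from 1 library of each group, Sham1 and TBI2. The other wide-ranging genes beside Pcdhgb8 and Pcdhgc3 were Pcdhga4, Pcdhgb2 and Pcdhga10, chosen for naming after their values were seen. The highest library was TBI1 for Pcdhga4 (18.5 CPM) and TBI2 for both Pcdhgb2 (69.6 CPM) and Pcdhga10 (43.6 CPM). Gm26672 on the opposite strand (382 to 648 counts) overlaps 55.2% of the exonic bases of Pcdhga10. Without strand information the reads of this overlap cannot be told apart. Of the members, 4 alpha, 1 beta and 8 gamma genes have an overlap with a gene on the opposite strand.

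**Figure D1:**
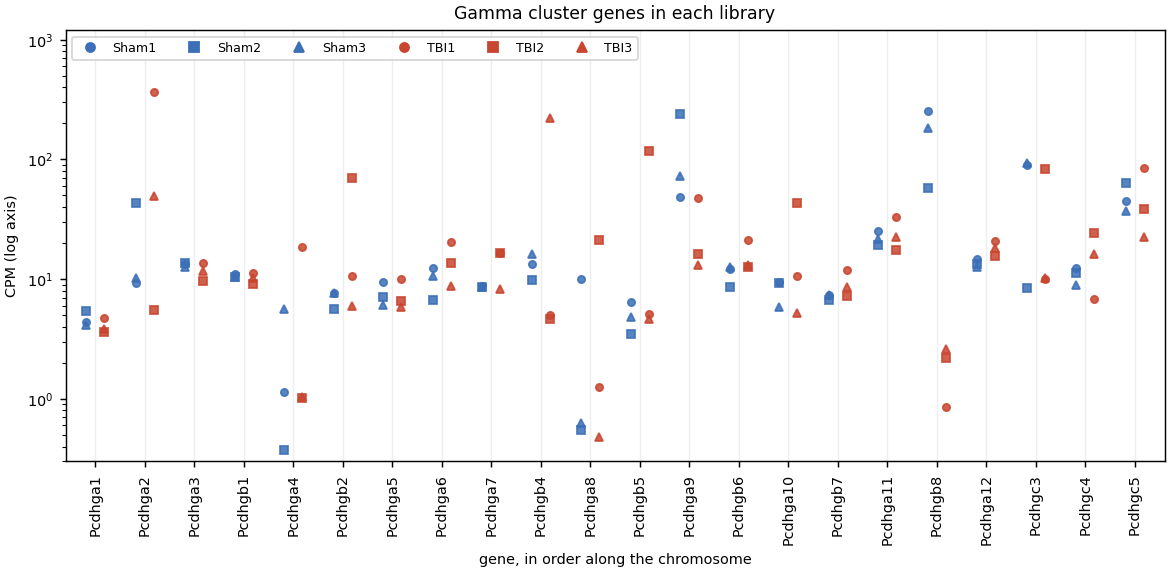
Level of the 22 gamma genes in CPM on a log axis, ordered along the chromosome, with 1 point per library (blue sham, red TBI; circle, square and triangle for replicates 1, 2 and 3). For 12 genes the 6 points lie within 4-fold, and the other 10 spread more widely. Among the latter, Pcdhga2, Pcdhgb4, Pcdhgb5, Pcdhga9 and Pcdhgb8 each reach over 100 CPM in 1 or 2 libraries and lie far below in others.

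Pcdhgb8, annotated as a polymorphic pseudogene, belonged to this wide-ranging set. Its level was 253, 58.1 and 183 CPM in the sham libraries but 0.857, 2.21 and 2.61 CPM in the TBI libraries. All TBI libraries were below all sham libraries, with a fitted log2 difference of -6.45 (standard error 0.733), and within sham the level still differed 4.35-fold. Pcdhgb8 was not below 58.1 CPM in any sham library, while some other gamma genes had low values within sham. Pcdhga4 was at 0.374 CPM in Sham2 and 5.65 CPM in Sham3, and Pcdhga8 at 0.548 and 0.625 CPM in Sham2 and Sham3 and at 10.1 CPM in Sham1. Of the exonic bases of Pcdhgb8, 45.9% are shared with the other gamma genes.

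The remaining 12 gamma genes ranged over less than 4-fold in both groups. Pcdhgb1, the least variable, was at 11.0, 10.4 and 10.3 CPM in sham and 11.2, 9.20 and 10.2 CPM in TBI. Its SD of log2 CPM among libraries of a group was 0.108, against 2.55 for Pcdhga8. Pcdhga12, named after its values were seen, was at 14.8, 13.4 and 12.5 CPM in sham and 20.9, 15.7 and 18.2 CPM in TBI, so its groups did not overlap (log2 difference 0.42, standard error 0.172, edgeR adjusted p 0.982). Among the C-type gamma genes, Pcdhgc5 is known to bind GABA receptors. It was at 44.8, 63.4 and 37.3 CPM in sham and 85.5, 38.5 and 22.7 CPM in TBI, and its difference between groups changed sign with the library left out. Pcdhgc4, known for its role in the survival of neurons, was at 12.5, 11.3 and 8.99 CPM in sham and 6.81, 24.4 and 16.1 CPM in TBI. Neither showed a separation of the groups.

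Pcdhgc3, a C-type member that binds Axin1 in dendrites and is also known from the epithelium of the choroid plexus, took one of 2 levels in each library. It was at 90.4 CPM in Sham1, 93.7 in Sham3 and 83.8 in TBI2, and at 8.40 CPM in Sham2, 10.1 in TBI1 and 10.3 in TBI3. The high libraries were the 3 that were high in choroid plexus markers, in sham and TBI alike. The part of the choroid plexus in the level of Pcdhgc3 was not tested. BC037039 on the opposite strand overlaps 28.4% of the exonic bases of Pcdhgc3. Its counts ran from 1412 to 2333 and were not lower where Pcdhgc3 was low. Pcdhgc3 held 14.4 to 16.9% of the gamma counts in the high libraries and 1.38 to 2.22% in the low ones.

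The cluster sums moved far less than the gamma members. The gamma genes together were at 626, 554 and 553 CPM in sham and 731, 541 and 462 CPM in TBI. The mean and SD of 3 libraries were 578 ± 41.8 CPM for sham and 578 ± 138 CPM for TBI, and the groups overlapped. The coefficient of variation of the sum was 7.24% in sham and 23.9% in TBI, where that of the median gamma gene was 24.0% and 52.2%. If members varied independently, the variance of the sum would on average equal the summed variances of the members. It was 7.40% of them in sham and 29.96% in TBI. This ratio is weighted towards the genes with the highest CPM, whose peaks lay in different libraries. The 12 gamma genes that ranged over less than 4-fold summed to 256, 175 and 149 CPM in TBI1 to TBI3. Their sum was thus highest in TBI1, where Pcdhga2 was highest too. The beta genes had ratios in the other direction. The variance of their sum was 430% of the summed variances in sham and 444% in TBI, that is, beta genes tended to be high or low together. For alpha the values were 78.3% and 253%.

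**Figure D2:**
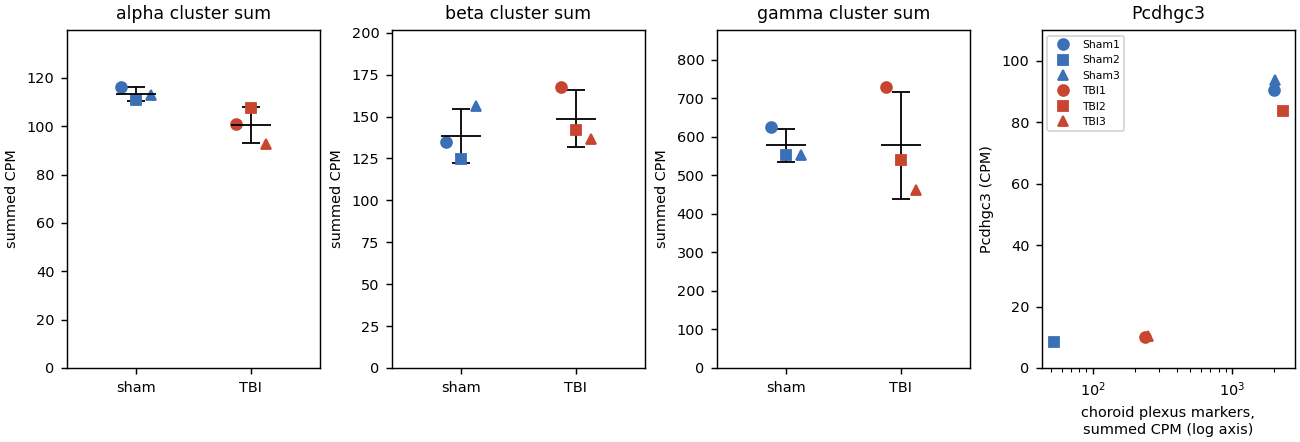
Summed CPM of the alpha, beta and gamma clusters in each library (points), with the mean and SD of 3 libraries per group (bars), and, on the right, the CPM of Pcdhgc3 against the summed CPM of 5 choroid plexus markers on a log axis. Only the alpha sums are separate between groups, and Pcdhgc3 is at 83.8 to 93.7 CPM in the 3 libraries with choroid plexus markers at 2008 to 2328 CPM and at 8.40 to 10.3 CPM in the others.

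The make-up of the gamma counts differed from library to library. The part that the split of reads from shared exons had in this was not tested. The share of a gene is its percentage of the cluster's counts in a library and does not allow for gene length. The leading gene was Pcdhgb8, Pcdhga9, Pcdhga2, Pcdhgb5 or Pcdhgb4, depending on the library, with 21.8 to 49.96% of the gamma counts. Pcdhga2 held 49.96% in TBI1 and 1.02% in TBI2, and Pcdhgb4 held 47.7% in TBI3 and 0.687% in TBI1. The effective number of genes, which is the inverse of the summed squared shares, was 4.47 to 6.01 in sham and 3.64, 9.15 and 3.99 in TBI1 to TBI3. Yet the 10 wide-ranging genes together held 65.0 to 72.4% of the gamma counts in every library. Their sum (mean ± SD of 3 libraries) was 410 ± 36.2 CPM in sham against 384 ± 82.6 CPM in TBI, and that of the other 12 was 168 ± 13.1 against 194 ± 55.6 CPM. The 10 genes were selected by their spread, so this is a description of where the counts lay.

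For each pair of libraries, the percentage of gamma counts that would have to move to another gene to make the shares equal was computed. It averaged 33.7% within sham, 59.3% within TBI and 56.8% between the groups. The 3 sham pairs ran from 10.9%, for Sham1 and Sham3, to 47.4%. The average within TBI was thus not below that between the groups. In the beta cluster the averages were 11.5% within sham, 11.2% within TBI and 11.1% between groups, and in the alpha cluster 6.01%, 9.65% and 7.89%. Each library enters several pairs, and no test was made.

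**Figure D3:**
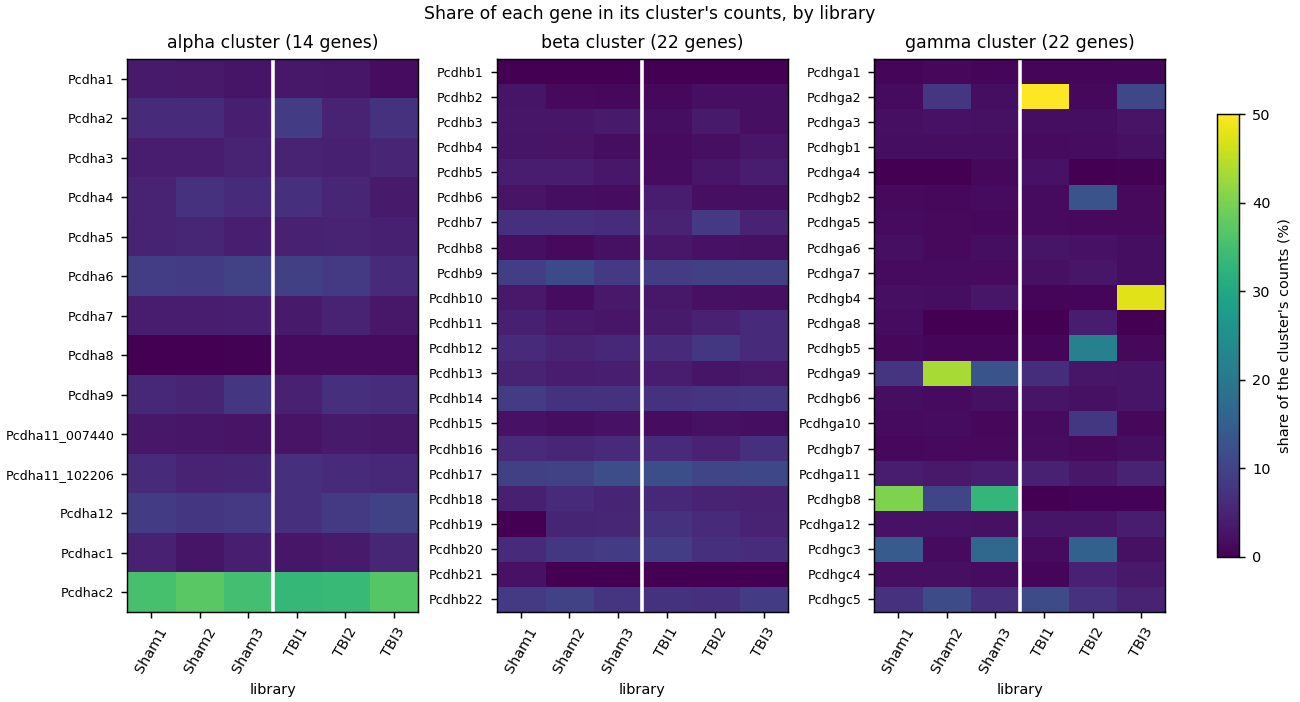
Share of each gene in its cluster's counts (colour, 0 to 50%) in the 6 libraries, for the alpha, beta and gamma clusters, with genes ordered along the chromosome and a white line between sham and TBI; the 2 entries of Pcdha11 carry the last digits of their identifiers. Pcdhac2 leads the alpha cluster in every library and the beta shares are even, while the bright cells of the gamma cluster fall on different genes in different libraries.

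In the alpha cluster the leading gene was the same in every library. Pcdhac2, a C-type member needed for the orderly spacing of serotonergic axons, held 33.3 to 37.2% of the alpha counts in each library. It was at 41.2, 41.2 and 39.6 CPM in sham and 33.7, 36.3 and 34.1 CPM in TBI. The groups did not overlap (log2 difference -0.23, standard error 0.110, edgeR adjusted p 0.982), and its SD of log2 CPM within groups, 0.0472, was the lowest of all members. The other C-type alpha gene, Pcdhac1, was at 5.36, 3.17 and 4.74 CPM in sham and 3.06, 3.98 and 4.94 CPM in TBI, with overlap. Pcdha6 or Pcdha12 came second with 8.51 to 9.80% of the counts.

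Pcdha8 was the alpha gene with the lowest counts. It had 5, 5 and 12 counts in sham and 63, 52 and 50 in TBI, with a mean ± SD of 0.187 ± 0.109 CPM and 1.53 ± 0.120 CPM over 3 libraries each. Its share of the alpha counts was 0.106 to 0.276% in sham and 1.52 to 1.53% in TBI. The fitted log2 difference was 3.02 (standard error 0.525). Pcdha1 was lower in all TBI libraries, at 3.21, 3.22 and 1.57 CPM against 4.25, 3.69 and 3.23 CPM in sham (log2 difference -0.48, standard error 0.351, edgeR adjusted p 0.982). Sham3 and TBI2 were close to each other in this gene. Pcdha4 shares 91.4% of its exonic bases, in large part with the readthrough model Gm42416, which was listed at 0 in every library, and 50.7% of its 100-base stretches occur in other members. It had a log2 difference of -0.36 (standard error 0.320) with overlapping groups. Its difference was -0.11 without TBI3 and -0.60 without TBI1, and that of Pcdha1 was -0.22 without TBI3.

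Summed over the 14 entries, the alpha genes were at 116, 111 and 113 CPM in sham and 101, 108 and 92.6 CPM in TBI. The mean ± SD of 3 libraries was 113 ± 2.86 CPM for sham against 100.4 ± 7.55 CPM for TBI, a log2 ratio of -0.18, and every TBI library was below every sham library. Without Pcdhac2 the sums were 75.2, 69.5 and 73.4 CPM in sham and 67.4, 71.3 and 58.4 CPM in TBI, and these overlapped. The hippocampal marker sum given above was also lower in all TBI libraries, with 5 of its 6 genes lower. The pan-neuronal sum was lower too, but its genes split into 3 higher and 3 lower. The part of neuronal content in the alpha sum was not tested. Of the 14 alpha genes, 11 were lower and 3 higher in TBI, with a median log2 difference of -0.19, where the median of all genes tested was 0.0091 and 48.6% of them were lower. Since reads from shared exons are divided among the alpha genes, these are not 14 separate observations. TBI3 was the lowest library for 6 of the 14 genes and TBI1 for 5.

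Of the 22 beta genes, 20 share no exonic base with another gene of the strand, so their counts depend least on how reads were split. Per kilobase of exon, Pcdhb9 had the highest level of the cluster (4.41 CPM per kb over the 6 libraries), followed by Pcdhb17 (3.34) and Pcdhb20 (3.09). The lowest of the tested genes was Pcdhb4 at 0.865 CPM per kb, and the next lowest, Pcdhb2, had 0.869, a difference well within their spread. Pcdhb9 was also the steadiest, at 12.3, 14.0 and 13.4 CPM in sham and 14.5, 13.6 and 13.01 CPM in TBI. Pcdhb17 led the beta counts in 5 libraries with 9.43 to 12.1%, and Pcdhb9 in Sham2 with 11.3%. The effective number of beta genes was 14.7 to 16.2, so that no gene dominated.

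**Figure D4:**
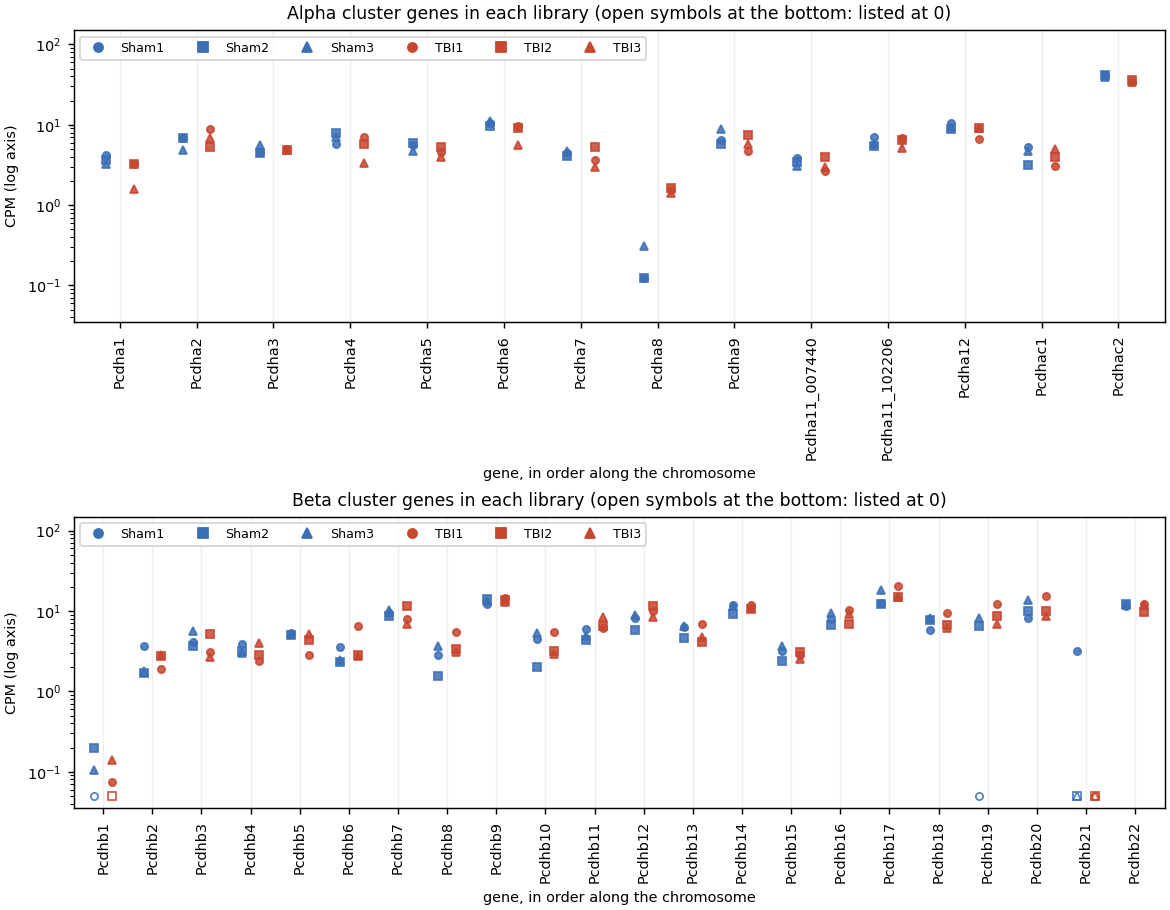
Level of the 14 alpha entries (top) and 22 beta genes (bottom) in CPM on a log axis, with 1 point per library (blue sham, red TBI; circle, square and triangle for replicates 1, 2 and 3; open symbols mark a gene listed at 0). Pcdha8 lies higher in all TBI libraries, and Pcdhb19 and Pcdhb21 show a value in Sham1 that the other libraries do not share.

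Summed over the 22 genes, the beta level was 135, 124 and 156 CPM in sham and 168, 142 and 136 CPM in TBI. The mean ± SD of 3 libraries was 138 ± 16.3 CPM for sham against 149 ± 16.8 CPM for TBI, a log2 ratio of 0.10, and the groups overlapped. Of 20 tested beta genes 12 were higher and 8 lower in TBI, with a median log2 difference of 0.050. The largest differences were those of Pcdhb19, Pcdhb8 and Pcdhb6, and in none were the groups separate. Pcdhb8 had 115, 62 and 140 counts in sham and 224, 106 and 111 in TBI (log2 difference 0.57, standard error 0.409), and its difference was 0.27 without TBI1 and 0.30 without Sham2. Pcdhb6 had 145, 92 and 95 counts in sham and 269, 89 and 99 in TBI, so only TBI1 was above the sham libraries. The only beta gene with separate groups was Pcdhb11, named after its values were seen, at 5.93, 4.34 and 4.85 CPM in sham and 6.10, 6.57 and 8.49 CPM in TBI (log2 difference 0.49, standard error 0.240, edgeR adjusted p 0.982).

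TBI1 was the highest library for 11 of the 20 tested beta genes and 12 of the 22 gamma genes, against 19.7% of all genes tested. Sham2 was the lowest for 10 beta and 7 gamma genes, against 23.0% of all genes. TBI1 stood apart in striatal and microglial markers and Sham2 in markers of oligodendrocytes, astrocytes and, with TBI1 and TBI3, choroid plexus, and the part of these in the beta and gamma levels was not tested. Without TBI1 the log2 ratio of the beta sums was 0.0088.

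A pair of beta genes differed in Sham1 alone. Pcdhb19 was listed at 0 in Sham1, had 259 and 317 counts in Sham2 and Sham3 and 497, 272 and 243 in TBI. Its SD of log2 CPM within groups, 2.93, was the highest of all members and rested on that library. Its fitted log2 difference of 0.91 (standard error 1.29) was 0.33 without Sham1. Pcdhb21 had 130 counts in Sham1 and was listed at 0 in the other 5 libraries, while Pcdhb22, which overlaps it, had 465 counts in Sham1 and 308 to 502 elsewhere. An entry of 0 in such estimated counts can be a failed estimate. Pcdhb1 had 0 to 8 counts in each library. Pcdhb12 is overlapped over 63.5% of its bases by the antisense gene Gm37446 (150 to 265 counts), and without strand information their reads cannot be told apart.

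The SD of log2 CPM among libraries of the same group had a median of 0.708 over the 22 gamma genes, 0.308 over the 14 alpha genes and 0.294 over the 20 beta genes, beside 0.320 over all genes tested. It was above 1 for 9 gamma genes, 0 alpha genes and 1 beta gene, Pcdhb19, against 10.6% of all genes. The median of the gamma genes was 2.41 times that of the beta genes, and 1.48 times without TBI2. In sham alone the gamma median was 0.346 and the beta median 0.294, and in TBI alone they were 0.885 and 0.351. The alpha median was below the beta median in each group, at 0.175 in sham and 0.315 in TBI. Among 152 other tested genes that share 30 to 60% of their exonic bases with another gene of the same strand, the median was 0.337, and 22 of them ranged over more than 4-fold within a group. The part of shared exons in the spread of the gamma genes was not tested. For the 464 other single-block protein-coding genes without shared bases, the median was 0.370.

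**Figure D5:**
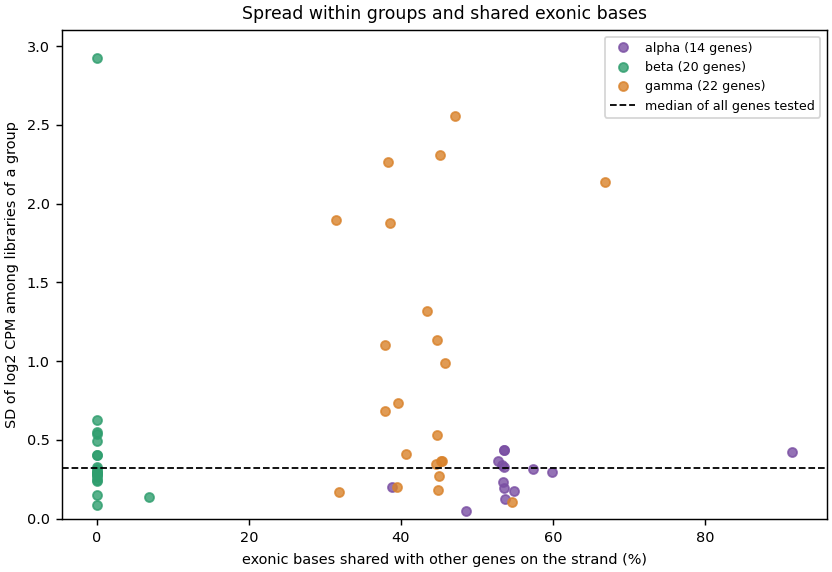
SD of log2 CPM among the libraries of a group, pooled over sham and TBI, against the percentage of exonic bases shared with other genes of the same strand, for the 56 tested members, with the median of all genes tested as a dashed line. Beta genes lie at or near 0% shared with 1 high point (Pcdhb19), alpha genes lie low at 38.9 to 91.4% shared, and gamma genes spread from 0.108 to 2.55.

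With an adjusted p under 0.1 and a change over 1.5-fold in either direction as the threshold, edgeR called 0 of the 56 tested members between TBI and sham, and 0.0% of all genes. At an unadjusted p under 0.05 there were 5 members, 1 alpha (Pcdha8) and 4 gamma genes (Pcdhgb8, Pcdhga9, Pcdhga12 and Pcdhgb5), beside 4.29% of all genes. DESeq2 with its defaults called 2 of the 58 members, Pcdha8 and Pcdhgb8, and 0.163% of all genes. Since these are the genes for which the family was chosen, nothing is read from these counts. Groups did not overlap in 7 of the 56 members, beside 10.2% of all genes. In 3 of them TBI was higher (Pcdha8, Pcdhb11 and Pcdhga12), beside 4.77% of all genes, and in 4 it was lower (Pcdha1, Pcdhac2, Pcdhga9 and Pcdhgb8), beside 5.45%. The fitted differences of the gamma leaders were large with large errors. They were 2.74 for Pcdhga2 (standard error 1.40), 2.53 for Pcdhgb4 (1.46), 3.12 for Pcdhgb5 (1.30) and -2.23 for Pcdhga9 (0.757). Of these, that of Pcdhgb4 was -1.46 without TBI3 and that of Pcdhgb5 -0.011 without TBI2, and that of Pcdhga8, 1.03, was -2.12 without TBI2. That of Pcdhga2 was 0.38 without TBI1, and that of Pcdhga9 was -1.24 without Sham2.

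Other annotated genes could take counts from the clusters. The readthrough models Gm37013, Gm37388 and Gm42416, whose exons lie in an alpha gene and in the shared gamma exons, and the pseudogene Gm18150 were listed at 0 in every library. Gm38182, a processed transcript whose 1530 exonic bases all lie in gamma exons, had 206, 40 and 223 counts in sham and 160, 110 and 201 in TBI. Adding these genes moved the log2 ratio of the gamma sums from 0.0003 to 0.0012.

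Genes that act on or with the clusters were taken as lists. Promoter choice in the clusters is known to rest on the DNA-binding protein CTCF, on the cohesin complex and on DNA methylation, and repressors of chromatin such as Setdb1 and Rest act there too. Of a list of 22 genes of these kinds, 10 were higher and 12 lower in TBI, with a median log2 difference of -0.0028 and 0 called by edgeR. At an unadjusted p under 0.05 there were 2 of the 22, beside 4.29% of all genes, and the groups did not overlap in CPM in 4, of which 3 were higher and 1 lower in TBI, beside 10.2% of all genes. The smallest p among them was that of Stag1, a cohesin subunit, with 925, 1156 and 1113 counts in sham and 1322, 1138 and 1649 in TBI (log2 difference 0.51, standard error 0.185). Next came Dnmt3b, a DNA methyltransferase of the clusters' promoters, with 17, 8 and 12 counts in sham and 22, 28 and 40 in TBI (1.44, standard error 0.531). In CPM the groups did not overlap in either gene, with 26.9 ± 3.50 CPM in sham against 38.2 ± 7.24 CPM in TBI (mean ± SD of 3 libraries) for Stag1. Rad21, another cohesin subunit, had 0.28 (standard error 0.135). Of 22 intracellular and membrane partners, 9 were higher and 13 lower, with a median of -0.051 and 0 called (0 at an unadjusted p under 0.05), and 2 were lower in TBI without overlap, beside 5.45% of all genes. The smallest p values were those of Wasf1 (-0.47, standard error 0.220) and Nckap1 (-0.30, standard error 0.140), which belong to the WAVE complex that builds actin branches, and of Ptk2 (-0.22, standard error 0.119), a focal adhesion kinase that gamma protocadherins hold in check.

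The 12 non-clustered protocadherins, adhesion genes that stand alone in the genome, had a median log2 difference of -0.097, with 4 higher and 8 lower in TBI, and edgeR called 0 of them. At an unadjusted p under 0.05 there were 2 of the 12, beside 4.29% of all genes. Pcdh1 had a mean ± SD of 307 ± 26.0 CPM over 3 sham libraries against 190 ± 34.2 CPM over 3 TBI libraries, a log2 difference of -0.69 (standard error 0.159, edgeR adjusted p 0.982). Pcdh11x had the opposite sign, with 8.83 ± 0.573 CPM in sham against 12.8 ± 0.446 CPM in TBI (0.54, standard error 0.159). Both had separate groups, 2 of the 12 genes beside 10.2% of all genes, and Pcdh12, at 10, 38 and 33 counts in sham and 16, 6 and 9 in TBI, overlapped. The within-group SD of this family had a median of 0.427, and 2 of its 12 genes ranged over more than 4-fold within a group.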

How the data were processed

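Per the labels and the methods of the study, the authors used FastQC for read quality, HISAT2 for alignment (GRCm38) and StringTie for quantification. Deposited for each library was an estimated count per gene, whole and without normalization. Annotation release, strandedness, read length and how coverage became counts are not given in the sources used here. These estimates are not read tallies, so no counting interval is given. Symbols and exons came from GENCODE vM21 (GRCm38), with 52403 of 52550 identifiers matched.

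R 4.3.3 with edgeR 4.0.16 was used: filterByExpr by group, TMM, a quasi-likelihood fit over all 18795 genes with group as the only term, and Benjamini-Hochberg adjustment. DESeq2 1.42.0 was an alternative. The fits were tested on simulated data. Log2 CPM used a prior count of 2. Spread was the SD of log2 CPM pooled over both groups. Cluster sums, shares and spread were given no test. The smallest exact permutation p for 3 against 3 libraries is 0.1.

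Named were leaders of a cluster in any library, the 3 largest differences per cluster, C-type members, Pcdhgb8, Pcdha8, the most and least variable members, the extremes of beta level per kb, genes sharing exons with members, and up to 3 genes with the smallest p of each other list. Members, lists and rules were chosen with earlier results of these data known. The alternatives were DESeq2, its size factors, library totals, other filters, thresholds, prior counts and scales, each library left out, and the replicate number as a block. DESeq2 with each library left out was added after seeing the data.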

Additional observations from a re-analysis of the deposited data

How the results depend on the processing

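For all genes, the number called was 0 with edgeR and 46 with DESeq2's defaults; leaving out each library gave 0 to 1 with edgeR and, with DESeq2, 33, 62 and 122 without Sham1 to Sham3 and 43, 325 and 48 without TBI1 to TBI3. Of the members, edgeR called 0 in every fit, with and without the replicate block, and DESeq2 called 2, or 3 without Sham1, TBI1 or TBI2, 2 without Sham2 or Sham3 and 6 without TBI3. The last added Pcdhga7, Pcdhgb4, Pcdhgb2 and Pcdhb21. The labels do not say that the replicate numbers pair the samples. Deviations of same-numbered libraries from their group means had correlations of -0.0996, -0.065 and 0.15. Correlations of libraries with different numbers were not computed, so these values cannot decide whether there was a pairing. The count of called genes was 0 with and without the block, which says nothing about the pairing. The log2 ratios of the alpha, beta and gamma sums moved by less than 1 SD under every alternative. With a library left out they ran from -0.23 to -0.12, from 0.0088 to 0.20 and from -0.20 to 0.14. The gamma to beta ratio of median spread was 1.48 to 2.57 with a library left out, and the alpha to beta ratio, 1.05, ran from 0.71 to 1.13. Of the 21 members named by the rule, 14 kept the sign of their difference in all 11 alternatives; other members, Pcdhb11 and Pcdhga12 among them, were not followed. With a library left out, the log2 difference of Pcdhac1 ran from -0.34 to 0.019, of Pcdhb4 from -0.37 to 0.026, of Pcdhgb1 from -0.13 to 0.011, of Pcdhgb4 from -1.46 to 3.09, of Pcdhga8 from -2.12 to 3.70, of Pcdhgb5 from -0.011 to 3.64 and of Pcdhgc5 from -0.66 to 0.35. That of Pcdhgc3 kept its sign but ran from -2.67 to -0.45. Pcdhgc5, at 0.012, was -0.0003 with library totals and -0.18 with the replicate block. The block also moved Pcdhgb4 from 2.53 to 0.13, Pcdhga8 from 1.03 to 0.17, Pcdhgb5 from 3.12 to 1.22, Pcdhb19 from 0.91 to 1.57 and Pcdhgc3 from -0.89 to -1.68. The cause was not tested. Shared exons and unknown strandedness limit the values of single alpha and gamma genes.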
